A study of Mus musculus with 7 samples.

Results

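RNA-seq counts from mouse femoral cortical bone were read for 10 genes that bone cells use to sense load and to pass the signal on: the channels Piezo1 and Piezo2, the junction and release channels Gja1, Panx1 and Panx3, the ATP receptor P2rx7, the surface glycoproteins Pdpn and Cd44, and the transcriptional coactivators Yap1 and Wwtr1. They were taken from the files by symbol and make up 10 of the 27179 genes in the files. Each was found once and each passed the filter on low counts (3 or more libraries at or above 0.65 CPM, the read count relative to the total of its library), so that 10 of 10 were among the 15098 genes tested. All mice were 12-week-old females on a C57BL/6 background. In 3 mice of genotype Dmp1Cre.EfnB2f/f, Cre recombinase driven by the Dmp1 promoter, which is active in late osteoblasts and osteocytes, acts on a floxed Efnb2 gene, which encodes the membrane ligand ephrinB2. The 4 control mice, littermates or cousins, carried Dmp1Cre as well, but not the floxed alleles. The bones were flushed of marrow and frozen whole, so each library is 1 animal and a mixture of all cells left in cortical bone, in which fewer cells of a type and less RNA per cell cannot be told apart.

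Osteocytes lie in fluid-filled canals within the mineral and respond when loading moves that fluid. Stretch-gated channels such as PIEZO1 admit calcium, connexin and pannexin channels let small molecules and ATP pass between cells or out of them, and ATP acts on purinergic receptors. YAP and TAZ, the proteins of Yap1 and Wwtr1, move into the nucleus of cells under tension, where they act through TEAD transcription factors. Podoplanin, also called E11, is an early marker of cells that become osteocytes, and CD44 is the receptor for hyaluronan.

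Libraries labelled Dmp1Cre.EfnB2f/f, named f/f libraries 1 to 3 here, held 18119947 to 19119250 counts in all, and the controls held 17245556 to 22075778. Controls 1 and 4 stood apart from the other libraries, with scores of 43.9 and 68.8 on the first principal component of log2 CPM against -41.4 to -1.76 in the other 5. Counts of the targeted gene were not lower in the f/f libraries. Efnb2 was at 17.9, 13.1 and 11.8 CPM in the f/f libraries and at 8.49, 7.93, 6.44 and 6.36 CPM in controls 1 to 4, higher in 3 of 3 f/f libraries than in every control (two-sided exact permutation p = 0.0286, the smallest that 3 against 4 libraries allow; adjusted p = 0.511 in edgeR). Of all genes tested, 5.05% were separate in that direction. The counts cover whole genes and tissue, so this does not measure recombination in osteocytes. The study checked deletion by PCR in sorted osteocytes, and reported effective targeting there with Efnb2 kept in other cells. Osteocyte markers were present: none of 9 (Dmp1, Mepe, Sost and others) was at 0 in every library, and their summed level was 360.2 to 603 CPM in the f/f libraries and 235 to 816 CPM in the controls, with the highest sum in control 1.

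In controls, the level per gene length (RPKM, the CPM divided by the length of the gene in kilobases) set the order of the 10 genes. Cd44 was highest at 53.5 ± 2.82 RPKM (SD, n = 4) and Gja1 came next at 44.3 ± 19.1. These values lay near the 91.3 and 91.0 percentiles of all genes tested, taken over the mean of 7 libraries. Piezo1 followed at 21.5 ± 5.96 RPKM and Panx1 at 9.42 ± 2.00. Yap1 and Wwtr1 had nearly the same control level, at 6.46 ± 2.43 and 6.43 ± 3.00 RPKM. P2rx7 was at 3.45 ± 0.376 and Pdpn at 2.87 ± 2.27 RPKM. Panx3, at 0.901 ± 0.570 RPKM, and Piezo2, at 0.532 ± 0.434, closed the order and lay at the 12.5 and 7.31 percentiles. Several neighbours were not separated within libraries. Cd44 was above Gja1 in 3 of 7 libraries, Panx1 above Yap1 in 4, Yap1 above Wwtr1 in 2 and P2rx7 above Pdpn in 4. In the 4 controls alone these counts were 3, 3, 1 and 3. Each other neighbour pair kept its order in 7 of 7 libraries. In the f/f libraries the mean of Gja1, 52.6 ± 0.79 RPKM (SD, n = 3), was above that of Cd44, 42.7 ± 2.12.

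**Figure D1:**
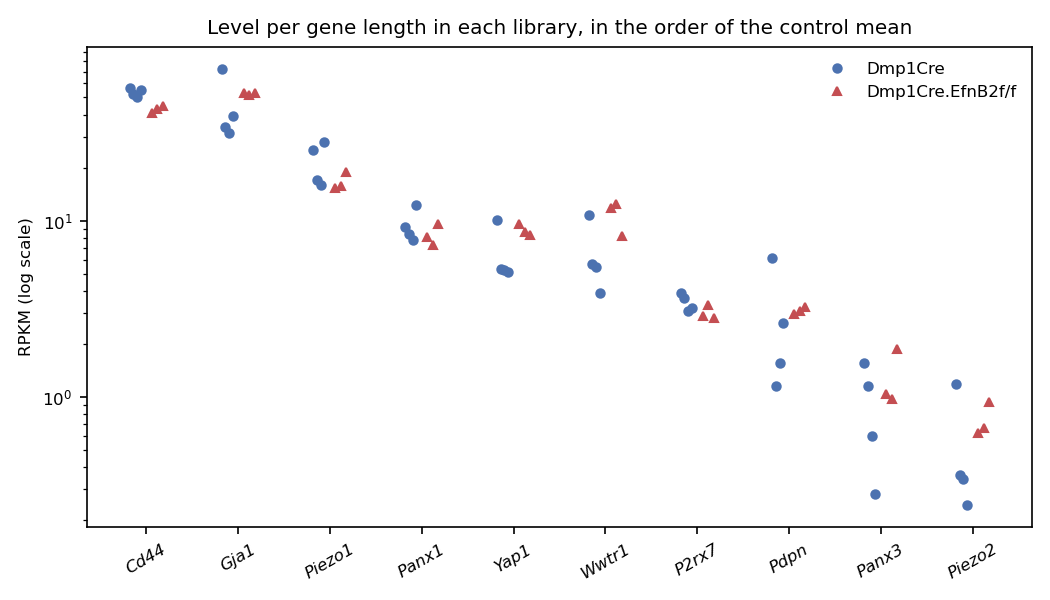
Level per gene length (RPKM, log axis) of the 10 genes, with 1 point per library: circles are the 4 Dmp1Cre controls and triangles the 3 Dmp1Cre.EfnB2f/f libraries, in the order of the control mean. Control levels ran from 53.5 RPKM for Cd44 to 0.532 RPKM for Piezo2, and the groups were separate for Cd44 alone.

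The question put to each gene was whether its level differed between the genotypes. None of the 10 passed an adjusted p of 0.05 in edgeR's quasi-likelihood test (adjusted p from 0.511 to 0.936), and neither did any other gene, a share of 0% of those tested. At an unadjusted p under 0.05 there were 0 of 10 members, against 9.66% of all genes tested (699 higher and 760 lower of 15098). DESeq2 called 0 of 10 at the adjusted threshold, against 0.477% of all genes. The fitted log2 fold change (f/f minus control) was positive for 6 members and negative for 4, beside 7751 and 7347 of all genes. The members' median was 0.17, beside 0.01 over all genes. That median was 0.67 without control 1, -0.01 without control 2 and 0.01 without control 3. Groups were separate for 0 genes in the direction of higher levels in f/f (background 5.05%) and for 1 gene, Cd44, in the direction of lower levels (background 6.3%).

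Piezo1 (Entrez 234839, chr8:122481698-122551329, build mm10) encodes a pore that opens when the membrane is stretched, and is the main such channel known in osteoblasts and osteocytes. Its level was 126, 129 and 156 CPM in f/f libraries 1 to 3 and 208, 140.1, 131 and 229 CPM in controls 1 to 4. Controls 1 and 4 were the high libraries, while controls 2 and 3 lay among the f/f libraries. The log2 fold change was -0.37 ± 0.24 (SE; adjusted p = 0.540 in edgeR), and it was -0.22 without control 4 and -0.28 without control 1. In the annotation, 2441 of the gene's exon bases (24.6%) are shared with Ctu2 on the opposite strand. The setting for strand in the counting is not given in the sources used here, so reads there cannot be told apart, although Ctu2 itself held at most 519 counts in a library beside at least 2231 for Piezo1.

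Piezo2 (Entrez 667742), the related channel of touch and position sense in sensory neurons, was scarce. Its counts were 120, 131 and 191 in the f/f libraries and 244, 68, 63 and 48 in the controls. In CPM these are 6.67, 7.18 and 10.1 against 12.6, 3.88, 3.69 and 2.61. Control 1 was the highest of all libraries, and controls 2 to 4 were the lowest. With 7 libraries the log2 fold change was 0.48 ± 0.51 (adjusted p = 0.680 in edgeR), and without control 1 it was 1.23 ± 0.26 (adjusted p = 0.369 in edgeR). It was 0.24 without control 4, 0.28 without f/f library 3 and 0.32 without control 3. Within a library, Piezo1 exceeded Piezo2 per gene length by 20.2 to 24.6 times in the f/f libraries and by 21.5, 47.2, 46.2 and 115 times in controls 1 to 4. The ranges overlapped through control 1, and the two-sided exact permutation test gave p = 0.114.

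Among 14 other channels held to respond to stretch or swelling, 13 were tested. None passed the adjusted threshold in edgeR. At an unadjusted p under 0.05, 0 were higher and 1 was lower, beside 699 and 760 of all 15098 genes. The median log2 fold change was 0.27, and 0.17 without control 4. The lower gene was Tmem63a (chr1:180942286-180975106), which encodes an osmotically and mechanically gated channel. It was at 64.1, 68.3 and 70.4 CPM in f/f against 96.0, 75.6, 80.1 and 110.1 CPM in the controls. The groups were separate (background 6.3% of all genes), with a log2 fold change of -0.42 ± 0.17 (adjusted p = 0.511 in edgeR). Trpv4 and Pkd1, which were named for their standing in bone mechanosensing after their values were seen, had log2 fold changes of -0.01 ± 0.28 and -0.15 ± 0.25. In both, control 1 had the highest level, at 12.6 CPM for Trpv4 and 376 CPM for Pkd1. Without that library the fold changes turned to 0.26 for Trpv4 and 0.09 for Pkd1.

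Gja1 (Entrez 14609, chr10:56377300-56390419), which encodes connexin 43, the main connexin of osteocytes, showed the tightest f/f group of the 10 genes. The f/f libraries were at 165, 160.5 and 164 CPM. Controls 1 to 4 were at 226, 106, 97.5 and 122 CPM. All 3 f/f libraries were therefore below control 1 and above controls 2, 3 and 4. The SD of log2 CPM was 0.02 over the f/f libraries and 0.55 over the controls, beside medians of 0.17 and 0.38 over all genes tested. The log2 fold change was 0.25 ± 0.29 (adjusted p = 0.709 in edgeR), and 0.59 ± 0.16 (adjusted p = 0.369 in edgeR) without control 1. It was 0.11 without control 3 and 0.14 without control 2.

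The pannexins form channels that release ATP. Panx1 (Entrez 55991, chr9:15005785-15045478), the widely expressed member, was at 16.8, 15.1 and 19.9 CPM in f/f and at 19.2, 17.5, 16.0 and 25.4 CPM in the controls. The groups overlapped, control 4 was the highest, and the log2 fold change was -0.18 ± 0.21 (adjusted p = 0.708 in edgeR). That value was -0.03 without control 4, -0.08 without f/f library 2 and -0.29 without f/f library 3. Panx3 (Entrez 208098, chr9:37659902-37669222), the pannexin of osteoblasts and chondrocytes, rested on 47, 45 and 89 counts in f/f and on 76, 51, 26 and 13 counts in the controls. In CPM it was at 2.61, 2.47 and 4.69 against 3.94, 2.91, 1.52 and 0.706, with f/f library 3 the highest and control 4 the lowest. Its log2 fold change of 0.52 ± 0.52 (adjusted p = 0.666 in edgeR) became 0.93 without control 1, 0.22 without control 4 and 0.16 without f/f library 3. Panx1 exceeded Panx3 per gene length by 5.15 to 43.7 times within a library, the widest range of the 6 ratios computed between members in relative terms.

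Of 18 other connexin and partner genes, 5 reached the filter, with a median log2 fold change of 0.42 (0.21 without control 3). At an unadjusted p under 0.05 there was 1 higher and 1 lower gene, beside 699 and 760 of all 15098 genes. None passed the adjusted threshold in edgeR. Tjp1 (chr7:65296165-65527850) encodes ZO-1, a scaffold that binds connexin 43. It was at 79.0, 69.9 and 64.7 CPM against 57.2, 56.2, 54.9 and 42.1 CPM, with a log2 fold change of 0.44 ± 0.17 (adjusted p = 0.511 in edgeR). Each f/f library was above every control (background 5.05% of all genes).

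P2rx7 (Entrez 18439, chr5:122643927-122692336), an ion channel opened by high extracellular ATP, was the flattest member after Cd44 among the controls. It was at 15.6, 17.8 and 15.2 CPM in f/f and at 21.0, 19.6, 16.7 and 17.2 CPM in controls 1 to 4. The groups met at f/f library 2, and were separate when that library was left out. The log2 fold change was -0.20 ± 0.17 (adjusted p = 0.612 in edgeR). Of 22 genes for purinergic receptors and enzymes that break down ATP, 21 were tested. At an unadjusted p under 0.05, 1 was higher and 0 were lower, beside 699 and 760 of all 15098 genes. The higher gene was P2rx6 (chr16:17561867-17572015), at 5.95, 9.43 and 5.59 CPM in f/f against 3.47, 2.57, 5.86 and 3.21 CPM. Its log2 fold change was 0.89 ± 0.33 (adjusted p = 0.511 in edgeR), with control 3 inside the f/f range. The list's median was 0.04, and -0.01 to 0.08 with 1 library left out, lowest without f/f library 1 and highest without control 2.

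Pdpn (Entrez 14726, chr4:143267409-143299564) had the widest control group of the 10 genes on the log2 scale, just ahead of Panx3, and a narrow f/f group. The f/f libraries held 94, 99 and 109 counts, or 5.23, 5.43 and 5.75 CPM. The controls held 210, 36, 47 and 85 counts, or 10.9, 2.05, 2.75 and 4.62 CPM. As for Gja1, each f/f library lay below control 1 and above the other 3 controls. The SD of log2 CPM was 0.07 in f/f and 1.03 in the controls. The log2 fold change of 0.10 ± 0.52 (adjusted p = 0.936 in edgeR) had no stable sign, being 0.80 without control 1, -0.16 without control 2, -0.10 without control 3, 0.06 without control 4 and 0.07 without f/f library 3.

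Cd44 (Entrez 12505, chr2:102811141-102901669) was the only member with separate groups when all 7 libraries were used. It stood at 229, 242 and 253 CPM in the f/f libraries and at 319, 294, 285 and 312 CPM in the controls. The means were 242 ± 12.0 (SD, n = 3) and 302 ± 15.9 CPM (SD, n = 4), and the two-sided exact permutation test gave p = 0.0286, the smallest it allows and 1 of 10 such tests. Across all genes the log2 fold change of -0.32 ± 0.16 was not called (adjusted p = 0.517 in edgeR, 0.217 in DESeq2). Groups that are separate with 7 libraries stay separate when any library is left out, so that adds nothing here. With each library left out in turn, the fold changes were -0.36 to -0.29. CD44 is also abundant on leukocytes. The summed neutrophil markers moved the same way, at 12150 to 15270 CPM in f/f and 17470 to 20170 CPM in the controls, separate groups. Of 9 markers, 0 were at 0 and 2 were lower at an unadjusted p under 0.05, beside 760 of all 15098 genes. Erythroid markers, at 3801 to 5784 against 6333 to 12280 CPM, were likewise separate, whereas macrophage markers overlapped at 987 to 1168 and 1001 to 1403 CPM. The part of these cells in the Cd44 values was not tested.

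Pdpn and Cd44 bind each other and both bind ezrin, radixin and moesin, which tie membrane proteins to actin. Of 16 genes for such partners, for hyaluronan synthesis and breakdown and for other ligands, 16 were tested and 0 passed an unadjusted p of 0.05 in edgeR, with 9 fold changes positive and 7 negative and a median of 0.02, which was -0.09 without control 4 and 0.10 without f/f library 1 or control 1. The genes of highest RPKM were Spp1 and Msn. Spp1, encoding the CD44 ligand osteopontin, was at 413, 412 and 269 CPM in f/f and 625, 239.9, 173 and 182 CPM in the controls. Msn, encoding moesin, was at 270.0, 257 and 289 CPM against 403, 309, 293 and 382 CPM. It was lower in 3 of 3 f/f libraries than in every control (background 6.3% of all genes). Its log2 fold change was -0.35 ± 0.19 (adjusted p = 0.518 in edgeR).

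**Figure D2:**
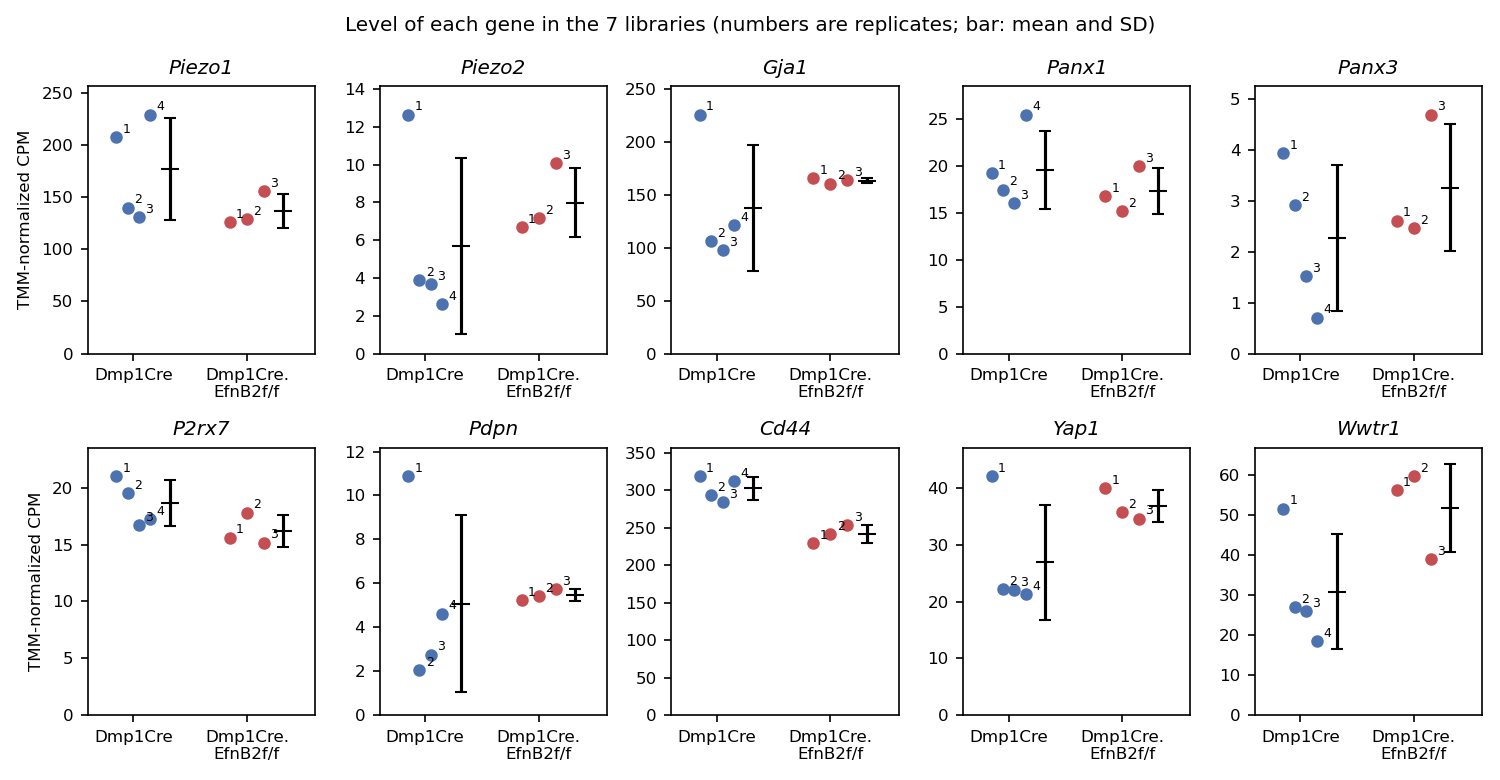
TMM-normalized CPM of each of the 10 genes in the 4 Dmp1Cre controls (blue) and the 3 Dmp1Cre.EfnB2f/f libraries (red). Numbers beside points are replicates and black bars are mean and SD. In Piezo2, Gja1, Pdpn and Yap1 control 1 lay above the f/f libraries and controls 2 to 4 below them, and for Cd44 the groups were separate.

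Yap1 (Entrez 22601, chr9:7931999-8004638) and Wwtr1 (Entrez 97064, chr3:57455644-57575910) are related coactivators that bind no DNA themselves. The RefSeq promoter windows of the members (GRCm38.p6, the build of mm10) run from 250 bases before a start to a short way past it. Each was searched for the TEAD motif GGAATG, the RUNX motif TGTGGT and the AP-1 motif TGANTCA. Printed here are the 250 bases before a start for some windows that held a motif. Those of Yap1 and Wwtr1 (both minus strand) held the TEAD motif, and that of Gja1 (plus strand) held the AP-1 motif. Sequences run 5′ to 3′ along the gene and capitals mark the motif.
Yap1, chr9:8004597-8004846: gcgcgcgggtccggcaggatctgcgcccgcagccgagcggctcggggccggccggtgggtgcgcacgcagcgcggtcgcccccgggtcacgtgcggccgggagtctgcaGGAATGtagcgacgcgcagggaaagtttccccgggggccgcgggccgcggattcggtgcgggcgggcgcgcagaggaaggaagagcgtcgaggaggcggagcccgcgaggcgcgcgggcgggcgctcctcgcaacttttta
Wwtr1, chr3:57575911-57576160: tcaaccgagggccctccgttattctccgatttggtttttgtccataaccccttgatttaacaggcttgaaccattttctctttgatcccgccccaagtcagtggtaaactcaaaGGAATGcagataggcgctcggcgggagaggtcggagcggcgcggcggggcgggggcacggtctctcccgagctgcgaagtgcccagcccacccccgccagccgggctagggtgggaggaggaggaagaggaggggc
Gja1, chr10:56377050-56377299: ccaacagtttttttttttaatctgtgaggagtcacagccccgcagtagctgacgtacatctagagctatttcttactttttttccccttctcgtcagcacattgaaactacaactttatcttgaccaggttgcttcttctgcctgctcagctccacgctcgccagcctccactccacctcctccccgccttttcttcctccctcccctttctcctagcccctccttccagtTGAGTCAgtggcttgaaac

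The TEAD motif began 141 bases before the start of Yap1 and 136 bases before that of Wwtr1, and the AP-1 motif 19 bases before that of Gja1. Of 10 windows found for 8 of the members (Panx3 and Piezo2 had none), the TEAD motif was in 3, of 2 genes: that of Yap1 and 2 overlapping windows of Wwtr1, which hold the same site. The AP-1 motif was in 2, of Gja1 and P2rx7, and the RUNX motif TGTGGT in 1, of Panx1. Both strands were read. Of 32851 windows of all genes, 14.7% held the TEAD motif, 7.81% the AP-1 motif and 16.8% the RUNX motif, so each is common by its letters alone and no binding was measured here.

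The level of Yap1 was 40.1, 35.8 and 34.7 CPM in the f/f libraries and 42.2, 22.2, 22.0 and 21.4 CPM in controls 1 to 4. Controls 2 to 4 lay close together, and control 1 was 1.93 times their mean and above every f/f library. The log2 fold change was 0.45 ± 0.26 (adjusted p = 0.526 in edgeR), and it became 0.75 ± 0.15 without control 1 (adjusted p = 0.369 in edgeR). Wwtr1 had the largest positive fold change of the 10 genes. It was at 56.2, 59.6 and 39.0 CPM in f/f and 51.5, 27.0, 26.0 and 18.5 CPM in the controls. Here f/f library 3 lay below control 1, and the other f/f libraries above it. The means were 51.6 ± 11.0 (SD, n = 3) and 30.8 ± 14.4 CPM (SD, n = 4), with a log2 fold change of 0.74 ± 0.33 (adjusted p = 0.511 in edgeR; two-sided exact permutation p = 0.0857). Without control 1 the fold change of Wwtr1 was 1.11 ± 0.23 (adjusted p = 0.369 in edgeR). Wwtr1 over Yap1 per gene length ranged from 0.755 in control 4 to 1.45 in f/f library 2, and the groups overlapped.

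The Hippo kinases and their adaptors, upstream of the coactivators, and the TEAD factors, through which these act, gave 23 of 23 tested genes. None passed the adjusted threshold in edgeR. At an unadjusted p under 0.05, 3 were higher and 0 lower, beside 699 and 760 of all 15098 genes. The median log2 fold change was 0.13 (0.08 without control 4). Fold changes were positive for 17 and negative for 6, beside 7751 and 7347 of all genes. The list mixes genes on both sides of the coactivators, so its counts and median give no direction of the pathway. Amot (chrX:145446424-145505966) encodes a binding partner that holds YAP at junctions and actin. It was at 50.2, 39.4 and 41.9 CPM in f/f against 23.7, 22.0, 35.8 and 16.7 CPM in the controls. It was higher in 3 of 3 f/f libraries than in every control (background 5.05% of all genes). Its log2 fold change was 0.84 ± 0.25 (adjusted p = 0.511 in edgeR). The related Amotl1 and the factor Tead1 had fold changes of 0.54 ± 0.23 and 0.59 ± 0.25, and in both the groups overlapped.

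Of 23 genes known as targets of YAP and TAZ, 22 were tested, and 0 passed the adjusted threshold in edgeR. Lats2 and Ptpn14 are also in the Hippo list and Nt5e in the purinergic list, so the lists are not fully separate. Fold changes were positive for 16 and negative for 6, beside 7751 and 7347 of all 15098 genes, with a list median of 0.18. The median was 0.47 without control 1 and between 0.10 and 0.25 without any other library. Rbms3 and Crim1 were higher at an unadjusted p under 0.05, beside 699 of all 15098 genes. Rbms3, encoding an RNA-binding protein, was at 35.02, 28.5 and 29.8 CPM against 24.0, 23.4, 19.7 and 13.7 CPM. Its groups were separate (background 5.05% of all genes), with a log2 fold change of 0.62 ± 0.22 (adjusted p = 0.511 in edgeR). The fold change of Crim1 was 0.38 ± 0.17. Ctgf and Cyr61, the targets most used as readouts of YAP, were named for that role after their values were seen. Ctgf was at 132, 101 and 77.8 CPM in f/f and 240.2, 58.4, 49.2 and 43.6 CPM in the controls. Cyr61 was at 224, 203 and 98.0 against 242, 112, 85.4 and 59.1 CPM. As for Yap1, control 1 was the highest library for both. Their log2 fold changes were 0.08 ± 0.59 and 0.49 ± 0.48 with 7 libraries, and 1.04 for each without control 1. The TEAD motif was in a window of 7 of the 15 target genes that had one, beside 4481 of 27025 genes of all. No binding was measured.

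Genes that loading is known to change in osteocytes were read as a last list, of which 11 of 13 were tested. Fold changes were positive for 10, beside 7751 of all 15098 genes, with a list median of 0.17. The list was not split by whether loading raises or lowers a gene. Its count and median therefore give no direction of a loading response. At an unadjusted p under 0.05, 2 were higher and 0 lower, beside 699 and 760 of all genes. Without control 1 the median was 0.75, without control 2 it was 0.08 and without control 3 it was 0.04, and it was 0.32 without f/f library 2 or 3. Igf1 (chr10:87858265-87937047), a growth factor that osteocytes make after loading, was at 53.1, 39.1 and 56.8 CPM against 24.7, 37.6, 31.4 and 37.4 CPM. Its log2 fold change was 0.60 ± 0.21 (adjusted p = 0.511 in edgeR), with separate groups (background 5.05% of all genes). Egr1, an immediate early transcription factor, was at 30.5, 16.2 and 16.8 CPM against 19.3, 7.19, 9.49 and 10.4 CPM, with a log2 fold change of 0.87 ± 0.37 (adjusted p = 0.511 in edgeR). Sost, which encodes the Wnt inhibitor sclerostin and is named for its role after its values were seen, was at 124, 54.3 and 47.1 CPM against 164, 51.5, 25.5 and 43.8 CPM, with overlapping groups.

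The comparison of 5 of the 10 genes rested on control 1. Without it the groups were separate for 6 members, as the levels given above already imply. Piezo2, Gja1, Pdpn, Yap1 and Wwtr1 were higher in f/f, beside a background of 10.5% of all genes, and Cd44 was lower, beside a background of 9.11%. The same 5 genes had an unadjusted p under 0.05 in edgeR (11.3% of all genes), the lowest adjusted p was 0.369, and 3 against 3 libraries allow no exact permutation p below 0.10. Without control 2, 3 or 4 there was 1 separate member, Cd44, which was lower and was already separate with 7 libraries. The backgrounds in that direction were 8.65%, 10.5% and 6.92% of all genes. Without f/f library 3, Wwtr1 was higher (background 13.9%) and Piezo1 and Cd44 were lower (background 16%), and without f/f library 2, 0 members were higher (background 6.89%) and P2rx7 and Cd44 were lower (background 8.05%).

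The pipeline of the study weights each library by its quality. It uses quantile-normalized log2 CPM in limma, and its block for the day of collection cannot be set from the labels. Run without that block, it called 5 members at an adjusted p under 0.05, all higher in f/f, beside 7.49% of all genes called higher. These were Piezo2 (log2 fold change 0.73, adjusted p = 0.0352), Gja1 (log2 fold change 0.66, adjusted p = 0.0139), Pdpn (log2 fold change 0.97, adjusted p = 0.0264), Yap1 (log2 fold change 0.65, adjusted p = 0.0133) and Wwtr1 (log2 fold change 1.06, adjusted p = 0.0101), each by limma. The weights it gave to controls 1 and 4 were 0.193 and 0.168, and those of the other libraries were 0.713 to 7.28. Without weights the same pipeline called 0 members and 0 genes (1603 genes at an unadjusted p under 0.05). The methods put 1 library per genotype on a day of its own, and over the 12 possible choices of these libraries the weighted pipeline called 0 to 7 members. It called 4 members with f/f library 1 and control 2 as that pair (19.5% of all genes called), 3 with f/f library 1 and control 4 (9.43%) and 3 with f/f library 2 and control 4 (24.6%). With f/f library 3 it called 5 members beside control 1 (13.2% of all genes called) and 7 beside control 4 (32.6%). Gja1, Yap1 and Wwtr1 were called in 5 of the 12, Pdpn in 3, Piezo2 in 2, Cd44 and P2rx7 in 1 each, and Piezo1, Panx1 and Panx3 in none.

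**Figure D3:**
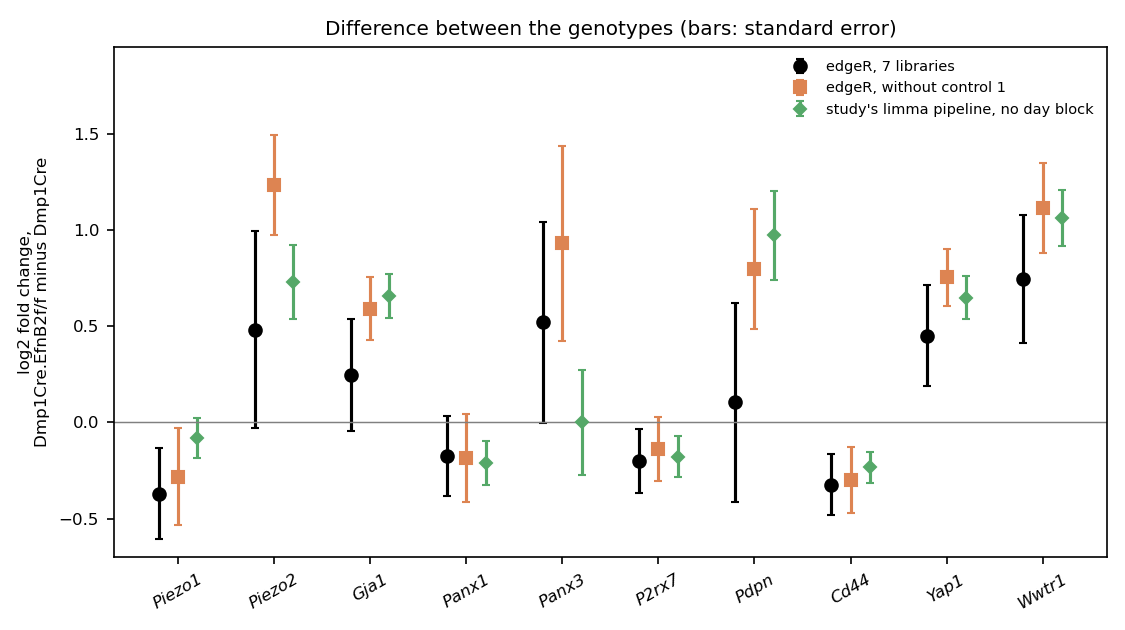
Log2 fold change (Dmp1Cre.EfnB2f/f minus Dmp1Cre) with its standard error for the 10 genes, from edgeR on 7 libraries (circles), edgeR without control 1 (squares) and the limma pipeline of the study without a day block (diamonds). For Piezo2, Gja1, Pdpn, Yap1 and Wwtr1 the squares and diamonds lie above the circles. For Wwtr1 the values are 0.74, 1.11 and 1.06.

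The labels name 4 parent crosses, and only 1 holds both genotypes, f/f library 3 and control 3. In that pair, with no replicate, f/f was higher by 0.75 (log2 CPM) for Gja1, 0.66 for Yap1, 0.58 for Wwtr1, 1.06 for Pdpn, 1.45 for Piezo2 and 1.62 for Panx3, and lower by fold changes of -0.17 for Cd44 and -0.14 for P2rx7. Piezo1 and Panx1, whose fold changes over 7 libraries were negative, were higher in this pair, by 0.25 and 0.31. Controls 1 and 2 came from the same cross and yet differed by 2.40 for Pdpn, 1.70 for Piezo2 and 1.09 for Gja1.

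Profiles were set side by side as the root mean square difference of log2 CPM, each gene centred on its mean over the 7 libraries. All genes come from the same libraries, which differed in depth and cell mixture, and the part of these in the profiles was not tested. The closest pairs of members were P2rx7 and Cd44 (0.13), Gja1 and Yap1 (0.15) and Piezo1 with Panx1 (0.16). Yap1 and Wwtr1 differed by 0.27. Of all genes tested, those most like Wwtr1 were Efhd1 (0.08), Smad9 (0.10) and Klhl29 (0.14). Those most like Pdpn were Etv4, Dok5 and Map1a (0.16 to 0.19). Piezo2 was most like Efna4, Hspb1 and D630003M21Rik (0.20 to 0.22), and Panx3 was most like Pappa2, Ildr2 and Ntrk3 (0.26 to 0.28).

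Several marker lists had their highest sum in control 1, as Piezo2, Gja1, Pdpn and Yap1 did. Osteoblast markers summed to 71560 CPM there, against 14270 to 35480 in the other controls and 14690 to 24570 in f/f. Osteoclast markers summed to 2647 CPM against 761 to 1312 and 1181 to 1246. Chondrocyte markers summed to 1119 CPM against 165 to 371 and 320 to 592, and adipocyte markers to 473 CPM against 62.9 to 157 and 173 to 219. Fibroblast and periosteum markers stood at 374 CPM in control 1, against 187 to 218 and 230.1 to 254. Their part in the member levels was not tested. In none of these lists was a marker at 0 in every library.

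Skeletal muscle markers summed to 27800 to 40630 CPM in f/f and 13090 to 28910 CPM in the controls. These sums overlapped, with control 3 above f/f library 1. At an unadjusted p under 0.05, 4 of 9 were higher, beside 699 of all 15098 genes. Endothelial markers stood at 447 to 555 CPM in f/f and 341 to 450.4 CPM in the controls, and overlapped, with control 4 above f/f library 3. Of 7 markers, 3 were higher at an unadjusted p under 0.05. The part of muscle and endothelial cells in the levels of Yap1, Wwtr1 and Gja1 was not tested. B lineage (343 to 379 against 246 to 406 CPM), lymphatic endothelial (50.4 to 62.7 against 46.3 to 97.3) and megakaryocyte markers (1696 to 1810 against 1240.0 to 2818) also overlapped between the genotypes.

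**Figure D4:**
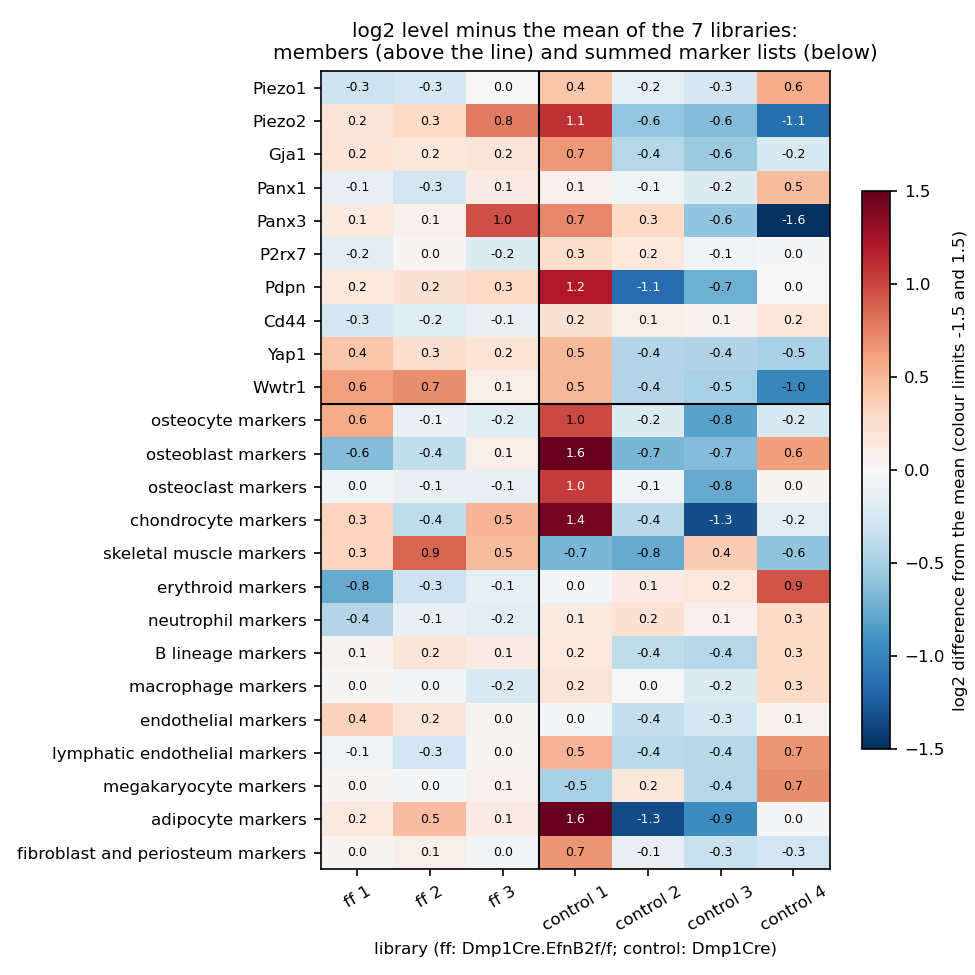
Log2 level of each of the 10 genes (above the line) and of the summed CPM of 14 marker lists (below it) in each library, minus the mean of the 7 libraries; ff marks Dmp1Cre.EfnB2f/f libraries and control marks Dmp1Cre. Control 1 was the highest library for Piezo2 (1.10), Gja1 (0.66), Pdpn (1.21) and Yap1 (0.49) and for the osteocyte, osteoblast, osteoclast, chondrocyte, adipocyte and fibroblast sums.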

How the data were processed

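Reads from cortical bone RNA of 3 Dmp1Cre.EfnB2f/f and 4 Dmp1Cre mice were mapped to mm10 with Rsubread by the authors, who deposited raw counts of reads per Entrez gene from featureCounts with Rsubread's own annotation, neither normalized nor pooled. The submitters' processing notes name bcl2fastq 2.17.1.14, featureCounts and mm10. The strand setting is not given in the sources used here. The table of the whole series and the 7 single files held the same counts, and symbols came from the latter because 26 differed.

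Genes under 0.65 CPM in more than 4 libraries were left out, as were 1204 genes of classes the study removed (immunoglobulin segments, predicted genes, pseudogenes, genes with no symbol and a few others). The 15098 genes left were tested in R 4.3.3 with edgeR 4.0.16 (TMM, robust quasi-likelihood), with Benjamini-Hochberg adjustment. Standard errors are the log2 fold change over the root of the F statistic. The limma pipeline of the study (limma 3.58.1, prior count 2) and DESeq2 1.42.0 served as alternatives. The tests were tried on simulated data first. CPM and RPKM use TMM-scaled totals, and RPKM the gene lengths in the files. Positions and promoter windows are from RefSeq, exon overlaps from GENCODE.

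The 10 members and all gene lists were chosen with earlier results of these data known. Some genes stand in several lists, such as Sost and Dkk1 among the loading genes and the osteocyte markers. Named were the members, Efnb2, the 3 genes closest to each member whose SD of log2 CPM was at least 0.5, and from each pathway list up to 4 genes at an unadjusted p under 0.05 or else 2 of highest RPKM. No libraries of a genotype were alike within counting error (chi-square per degree of freedom 28.9 to 226 between them). Alternatives were other normalizations, filters and tests, all gene classes, blocks for replicate number and parent cross, and each library left out. A further gene that the naming rule selects is not reported here.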

Additional observations from a re-analysis of the deposited data

Results flagged for a closer look

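Among the 4 controls, control 1 lay far above the others for Piezo2 and for Yap1. The gap from control 1 to the next control was 0.873 of the whole control range for Piezo2 and 0.963 of it for Yap1, above Dixon's 95% limit for 4 samples. The levels were 12.6 CPM against 2.61 to 3.88 CPM for Piezo2 and 42.2 CPM against 21.4 to 22.2 CPM for Yap1. The same gap was 0.812 for Gja1, 0.742 for Wwtr1 and 0.709 for Pdpn, under the limit. In all, 11 genes were read (the 10 members and Efnb2), and chance flags about 1 in 20 such groups. The genes share the same 4 libraries, so the 2 gaps are not independent of each other.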

How the results depend on the processing

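The number of genes past the adjusted threshold was 0 in edgeR and 2246 in the limma pipeline without a day block, 4929 in the highest of its 12 day blocks, 72 in DESeq2 and 0 to 2 when 1 library was left out (2 without f/f library 3 or control 4). The number of members was 0 in edgeR, 5 in that limma pipeline, 7 in its highest day block, and 0 in DESeq2 and with each library left out. Separate groups were found for 1 member with 7 libraries and for 1 to 6 with 1 library left out, with 6 without control 1, 3 without f/f library 3, 2 without f/f library 2 and 1 otherwise. Leaving out a library can only keep or add separate groups. With the parent cross as a block, only f/f library 3 and control 3 compare the genotypes, 1 library against 1. The fold changes of Piezo1 and Panx1 then turned to 0.25 and 0.31, the values of that pair given above. In the highest day block they turned to 0.004 and 0.048. Panx3 turned to -3.29e-05 in the limma pipeline without a day block and to -0.071 in the lowest day block. Pdpn ranged from -0.16 to 0.80 as 1 library was left out. Of the members' fold changes under alternatives, with the day blocks entered only as each member's lowest and highest fold change, 174 kept their sign and their side of the threshold, 8 turned and 8 passed it. These counts include the cross block with its 1 pair.

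With the replicate number as a block (the replicate block), 1 gene and 0 members passed the threshold. Same-numbered libraries did not deviate together (correlations of -0.145, 0.063 and -0.419 for numbers 1 to 3). The libraries numbered 3 share a parent cross, whereas those numbered 1 and 2 share none between the genotypes. The methods of the study describe no pairing by number, and these correlations alone cannot decide the point. Piezo2, Panx3 and Pdpn, with under 250 counts in every library, carry the largest counting error.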
